A study of Homo sapiens with 18 samples.

Results

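Gene expression after a guide RNA against RELB was compared with a non-targeting control in GM12878, a B-lymphoblastoid cell line made by Epstein-Barr virus (EBV) transformation. The comparison set 3 libraries labelled RelB knockout against 3 control libraries, out of 18 libraries in the series, and covered 12381 of the 17155 genes in the deposited table, those with a mean normalised read count of at least 10 over the 18 libraries. The remaining libraries were knockouts of p52, p50, cRel and RelA, 3 each, and entered the fit so that all groups shared 1 estimate of spread.

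RelB is a DNA-binding subunit of the transcription factor NF-kB. It acts mainly in the non-canonical pathway, in which receptors such as CD40 and the BAFF receptor stabilise the kinase NIK, the precursor p100 (gene NFKB2) is cut to p52, and RelB:p52 dimers enter the nucleus. In EBV-transformed B cells the viral membrane protein LMP1 mimics CD40 and keeps both NF-kB arms active.

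All cells carried a lentiviral guide and had undergone 5 days of puromycin selection (3 µg/ml). The RelB-labelled cells received sgRNA against RELB and the control cells a non-targeting guide. Knockout had been checked by immunoblot, per the labels, and the genotype tag reads "Wildtype LMP1" for every library. The number of guides per gene, and whether the cells were pools or clones, is not stated in the labels. The labels call the replicates biological without saying whether they came from separate transductions, so p-values here measure only the spread between these libraries.

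Whole reads could be recovered from the table. The RelB-labelled libraries held 15.2, 23.1 and 22.0 M reads, and the control libraries held 20.9, 23.5 and 37.5 M. Mitochondrial transcripts took 5.11% ± 0.299 of reads in RelB-labelled and 4.31% ± 0.677 in control libraries (SD, n = 3 each). Control library 3 stood apart from the other controls in its relation of level to transcript length (Spearman's rho across genes of its deviation from the group mean with length was -0.198, against 0.114 and 0.159). Without it, 3903 genes were called higher and 4049 lower in place of the 4098 and 4293 given below. Library 3 of the p52 knockout showed a like relation (rho -0.181, against 0.105 and 0.148 in the other p52 libraries). The 8 markers CD79A, CD79B, MS4A1, PAX5, EBF1, CD74, CR2 and FCER2 summed to between 140680 and 151110 normalised counts in RelB-labelled and between 138110 and 154200 in control libraries, mostly CD74 and MS4A1. EBF1, CR2, FCER2 and PAX5 were higher in every RelB-labelled library, and MS4A1 was lower in every one. EBF1 had 2369.5, 2519 and 2377 counts in RelB-labelled against 1195, 1139.6 and 1080 in control libraries. In the same groups CR2 had 984, 820.4 and 859 against 484, 413 and 392. FCER2 had 18586, 19264 and 19004 against 14775, 13993 and 16024. PAX5 had 7002, 7408 and 6350 against 5607, 5899 and 5307, and MS4A1 23349, 20072 and 21439 against 25219, 24184 and 24337. Of 8 T-cell and NK-cell markers, 5 were in the table and summed to between 701 and 778 in RelB-labelled against 412 and 553 in control libraries, mostly NKG7, while CD3D stayed under 2. Of 7 monocyte and macrophage markers, 6 were in the table and summed to between 763 and 790 in RelB-labelled against 397 and 430.1 in control libraries, and CSF1R made up most of that sum while CD14 stayed under 2 in every library. Of 7 epithelial and fibroblast markers, 6 were in the table and summed to between 1641 and 1952.5 in RelB-labelled against 1324 and 1487 in control libraries, mostly COL1A1, which overlapped between groups, and KRT18 was 0 in the RelB-labelled libraries. CDH1 had 346, 379 and 391 counts in RelB-labelled against 158, 124 and 112 in control libraries. The part of these markers in the results was not tested. In bulk RNA, a change in the number of cells that express a gene and a change in RNA per cell cannot be told apart.

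RELB mRNA did not fall in the RelB-labelled libraries. It stood at 4218, 4192 and 3911 normalised counts there, against 3422, 3137 and 3399.6 in control libraries, a log2 fold change of 0.31 ± 0.063 (SE; limma adjusted p = 0.000169). The lowest RelB-labelled library lay above the highest control. Small insertions and deletions made by Cas9 can remove a protein without lowering its mRNA, so the transcript checks neither the label nor the immunoblot. The libraries are called RelB-labelled throughout. All fold changes here are on the scale log2(normalised count + 1), RelB-labelled over control, and a gene is called when the adjusted p of limma (Benjamini-Hochberg over all 12381 genes) is under 0.05.

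Expression differed widely between the groups. Of the tested genes, 4098 were called higher, which is 33.1% of all tested, and 4293 were called lower, which is 34.7%. Most shifts were small, since 54.0% of the called genes changed by less than 1.5-fold. Genes called and at least 2-fold higher numbered 1033 (8.34%), and those at least 2-fold lower 468 (3.78%). The median log2 fold change over all tested genes was -0.0038. Genes of low expression tilted upward: of the 2534 genes with a mean between 10 and 100, 41.0% were called higher and 13.1% lower, while of the 4719 genes with a mean between 1000 and 10000, 24.1% were called higher and 49.1% lower. The minimum mean and these classes used all 18 libraries, the RelB-labelled ones included. A gene low elsewhere could therefore pass the minimum or enter a class through its rise in the RelB-labelled libraries. The part of this in the upward tilt was not tested. Every count of list members below is to be read against the shares above.

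Among the NF-kB subunits, NFKB2, the gene of p100 and p52, was higher, and NFKB1 and REL were lower. NFKB2 had 11210, 10995 and 10381 counts in RelB-labelled against 8578, 8698 and 8422 in control libraries, a log2 fold change of 0.34 ± 0.057 (limma adjusted p = 1.58e-05), with no overlap. NFKB1, which encodes p105 and p50, had 5779, 5865 and 5738 counts in RelB-labelled against 7418, 6895 and 6885 in control libraries (log2 fold change -0.29, limma adjusted p = 0.000279), a call lost under quantile normalization, where the log2 fold change was -0.13. REL, the gene of cRel, had 924, 1009 and 881 counts in RelB-labelled and 1554, 1717 and 856 in control libraries. The groups overlapped for REL because control library 3 lay below all 3 RelB-labelled libraries. Its call (log2 fold change -0.49, limma adjusted p = 0.024) was lost without RelB-labelled library 1 or 3 (-0.48 and -0.45) or without control library 1 or 2 (-0.37 and -0.30), and the log2 fold change was -0.80 without control library 3. RELA, encoding p65, was called with a log2 fold change of only 0.16 (limma adjusted p = 0.0366), and leaving out any 1 of the 6 libraries ended the call, with log2 fold changes between 0.15 and 0.17.

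The IkB inhibitors, which hold NF-kB dimers in the cytoplasm or act on DNA as atypical members, moved in both directions. NFKBIE (IkB-epsilon) had 4399, 4222 and 4332 counts in RelB-labelled against 2346, 2082 and 2270.5 in control libraries, a log2 fold change of 0.95 ± 0.073 (limma adjusted p = 1.75e-10). NFKBIA (IkB-alpha), the classic feedback inhibitor of canonical NF-kB, had 3895, 4189 and 4169 counts in RelB-labelled against 6812, 6730.1 and 7313 in control libraries, a log2 fold change of -0.77 ± 0.067 (limma adjusted p = 1.52e-09). For both genes the groups lay far apart, so these 2 inhibitors of the same dimers went opposite ways. NFKBIB fell by 0.48 and the nuclear inhibitor NFKBID rose by 0.67 on the log2 scale (limma adjusted p = 5.76e-05 and 4.7e-05). BCL3, a p50 and p52 cofactor, showed -0.10 with overlapping libraries and was not called. Of the 9 inhibitors, 3 were called higher and 2 lower.

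Upstream in the non-canonical pathway, CD40 and the BAFF receptor were higher and the adaptor TRAF3 lower. TNFRSF13C, the BAFF receptor, had 1032, 1127 and 991 counts in RelB-labelled against 419, 367 and 338 in control libraries, a log2 fold change of 1.49 ± 0.094 (limma adjusted p = 7.96e-12). CD40 had 3628, 3660.1 and 3855 counts in RelB-labelled against 2369, 2168 and 2391 in control libraries (log2 fold change 0.69). BIRC3, the ubiquitin ligase cIAP2, rose by 0.64 on the log2 scale (limma adjusted p = 2.16e-09). TRAF3, which marks NIK for degradation, had 4466, 4499 and 4365 counts in RelB-labelled against 5858, 5694 and 5078 in control libraries, a fall of 0.32 (limma adjusted p = 0.000115). MAP3K14, the gene of NIK itself, was not called (log2 fold change 0.15, limma adjusted p = 0.133). In all, 5 of the 10 tested genes upstream of RelB were called higher and 4 lower.

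Known NF-kB targets did not move as a block. Of 39 tested targets of EBV-transformed B cells, 19 were called higher and 10 lower, with a median log2 fold change of 0.22. CCL22, a chemokine that attracts regulatory T cells, had 7109.9, 7274 and 7379 counts in RelB-labelled against 2831, 2353 and 2494 in control libraries, a log2 fold change of 1.51 ± 0.076 (limma adjusted p = 2.65e-13). EBI3, a subunit of IL-27 and IL-35, had 12241, 11314 and 11559 counts in RelB-labelled against 4686, 4249.8 and 4858 in control libraries (log2 fold change 1.35). TNF, the inflammatory cytokine, had 70, 80.3 and 73.5 counts in RelB-labelled against 358, 350.0 and 432 in control libraries, a log2 fold change of -2.33 ± 0.11 (limma adjusted p = 6.65e-14). Every RelB-labelled library was above every control for CCL22 and EBI3, and below every control for TNF. PIM2, a survival kinase, had 7171, 6796 and 7111 counts in RelB-labelled against 1461, 1159 and 1337 in control libraries (log2 fold change 2.42). TNFAIP3, which encodes the inhibitor A20, rose by 0.75 and TRAF1 fell by 0.45 on the log2 scale (limma adjusted p = 2.38e-08 and 2.63e-07).

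The promoter windows of CCL22 and NFKBIA are shown because both hold the NF-kB consensus and their transcripts went opposite ways. Each window runs from 250 bases before to 50 bases after the RefSeq start (GRCh38.p14), is written in the direction of the gene, and has matches in capitals. The CCL22 window is chr16:57358533-57358832, plus strand, and its 2 matches overlap, starting 186 and 185 bases before the start. The NFKBIA window is chr14:35404700-35404999, minus strand, with 1 match starting 81 bases before the start.
CCL22: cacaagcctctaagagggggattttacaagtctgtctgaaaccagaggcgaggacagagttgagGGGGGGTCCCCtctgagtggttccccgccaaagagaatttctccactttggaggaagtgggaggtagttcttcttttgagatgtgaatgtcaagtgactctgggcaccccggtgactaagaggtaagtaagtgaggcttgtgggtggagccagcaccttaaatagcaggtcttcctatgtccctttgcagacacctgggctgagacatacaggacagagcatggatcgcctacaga
NFKBIA: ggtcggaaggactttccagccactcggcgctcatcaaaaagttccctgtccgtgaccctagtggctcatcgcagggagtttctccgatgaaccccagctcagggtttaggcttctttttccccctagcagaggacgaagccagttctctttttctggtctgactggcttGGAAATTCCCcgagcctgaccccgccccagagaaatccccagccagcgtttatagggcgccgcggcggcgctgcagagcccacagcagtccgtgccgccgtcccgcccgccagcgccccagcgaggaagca
Windows were found for 9327 tested genes, which is 75.3%. The consensus, searched on both strands, was present in 10 of 33 target windows (30.3%) and in 12.9% of all windows. Among NF-kB feedback and ubiquitin regulators, 1 of 14 windows held it (7.14%). It was present in 14.6% of windows of genes called higher and 11.8% of those called lower. A match is only a run of letters and does not show binding.

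**Figure D1:**
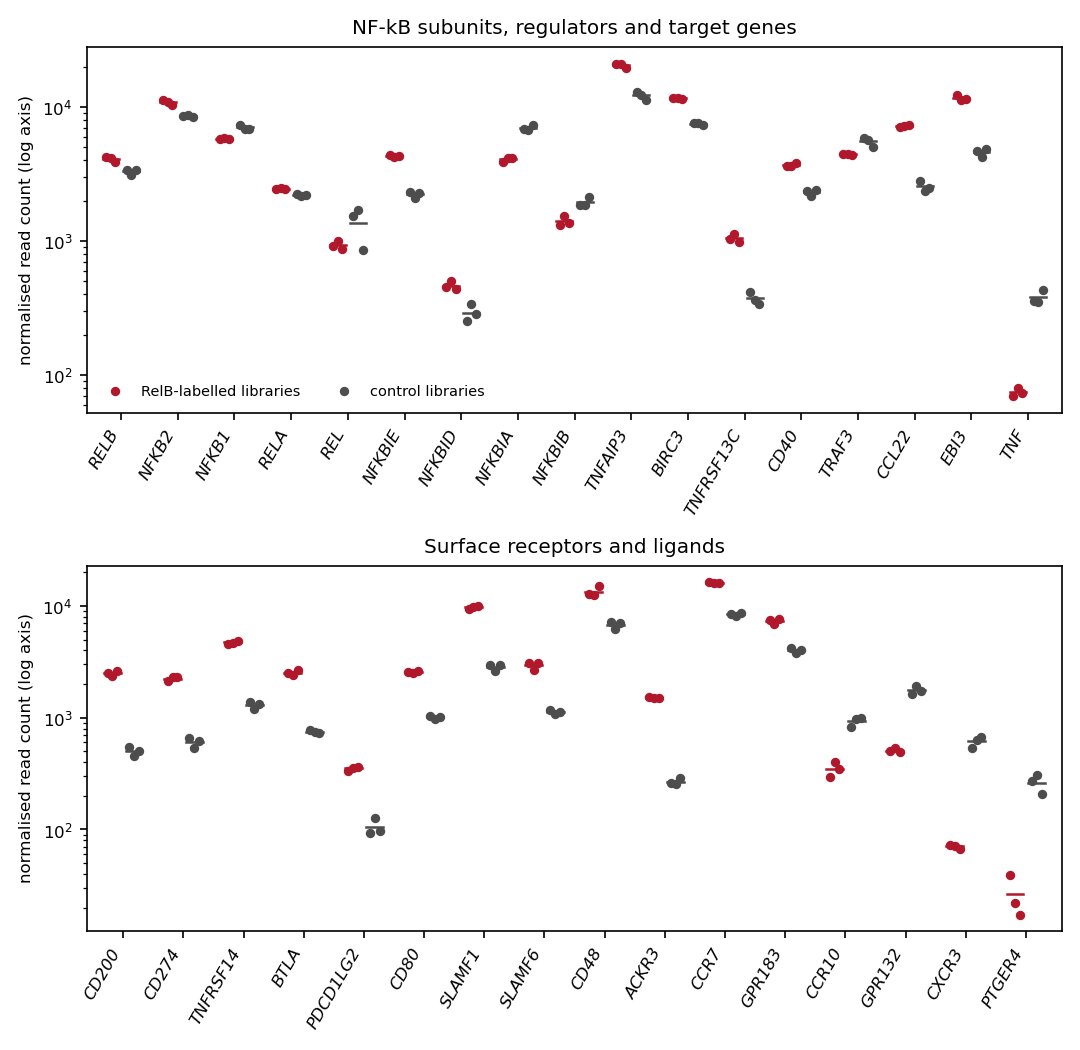
Normalised read counts on a log axis in the 3 RelB-labelled (red, left) and 3 control (grey, right) libraries, with the group mean as a line, for NF-kB genes (top) and surface receptors and ligands (bottom). RELB itself is higher in the RelB-labelled libraries, at 4218, 4192 and 3911 against 3422, 3137 and 3399.6, and REL is the gene whose groups overlap in the top panel.

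Costimulatory and checkpoint molecules of the B-cell surface were mostly higher. Of 15 tested genes, 12 were called higher, 7 of them at least 2-fold, and 1 lower, with a median log2 fold change of 0.92. CD200, an inhibitory ligand for myeloid cells, had 2524, 2372 and 2599 counts in RelB-labelled against 548, 456 and 509 in control libraries, a log2 fold change of 2.31 ± 0.083 (limma adjusted p = 1.1e-14). CD274, the gene of PD-L1, had 2111, 2306 and 2294 counts in RelB-labelled against 654, 538 and 615 in control libraries (log2 fold change 1.89 ± 0.081). PDCD1LG2, the gene of PD-L2, had 335, 358 and 363 counts in RelB-labelled against 93.7, 126 and 97.6 in control libraries (log2 fold change 1.74 ± 0.13). Both ligands of the T-cell inhibitory receptor PD-1 were thus higher in every RelB-labelled library. TNFRSF14 (HVEM) and its receptor BTLA rose together, by 1.86 and 1.75 on the log2 scale. CD80, the ligand of CD28, rose by 1.34, whereas CD86, which binds the same receptor, had 1362, 1309 and 1316 counts in RelB-labelled and 1204, 1164 and 1315 in control libraries and was not called.

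The SLAM family, mostly homotypic receptors between lymphocytes, had all 7 tested members called higher, with a median of 0.98. SLAMF1 had 9388, 9771 and 9955 counts in RelB-labelled against 2989.5, 2599.6 and 2966 in control libraries, a log2 fold change of 1.77 ± 0.071 (limma adjusted p = 1.49e-14). SLAMF6 and CD48 rose by 1.39 and 0.98 on the log2 scale. In the p52 knockout against the same controls the SLAM median was 0.93. Compared directly, 5 SLAM members were higher and 1 lower in RelB-labelled than in p52 knockout libraries. In the TNF receptor superfamily 13 of 22 were called higher and 6 lower, with a median of 0.57. The median of the p52 knockout against the same controls was 0.55, and directly 7 receptors were higher and 7 lower in RelB-labelled libraries. CD27, the receptor of CD70, had 179, 173 and 170.4 counts in RelB-labelled against 43, 33.5 and 43.3 in control libraries (log2 fold change 2.11), while TNFRSF17, the plasma-cell receptor BCMA, named here after its value was seen, fell by 1.01.

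Chemokine and homing receptors were mostly lower. Of 16 tested receptors, 11 were called lower, 8 of them at least 2-fold, and 5 were called higher. CCR1, a receptor of inflammatory chemokines, was near 0, at 0, 0.956 and 1.02 counts in RelB-labelled against 16.5, 24.6 and 20.7 in control libraries (limma adjusted p = 1.39e-07). PTGER4, the prostaglandin E2 receptor EP4, had 39.4, 22 and 17.3 counts in RelB-labelled against 272, 305 and 208 in control libraries, a log2 fold change of -3.33 ± 0.22 (limma adjusted p = 1.27e-11). CXCR3, the receptor of CXCL9, CXCL10 and CXCL11, had 72.9, 71.7 and 67.3 counts in RelB-labelled against 530.4, 638 and 670.2 in control libraries (log2 fold change -3.09 ± 0.15). GPR132 had 503, 532 and 492 counts in RelB-labelled against 1614, 1921 and 1726 in control libraries (log2 fold change -1.78 ± 0.084). These 4 receptors were low in every RelB-labelled library, with no overlap. CCR10, a receptor of mucosal and skin homing, had a log2 fold change of -1.43. CXCL10, a ligand of CXCR3, also fell, to 198, 211 and 203 counts in RelB-labelled against 411, 474 and 524 in control libraries (log2 fold change -1.19).

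The 5 receptors called higher were CCR7, GPR183, CXCR4, S1PR2 and ACKR3. CCR7, which reads CCL19 and CCL21, had 16289, 16164 and 16072 counts in RelB-labelled against 8544, 8103 and 8725 in control libraries, a log2 fold change of 0.94 ± 0.057 (limma adjusted p = 5.48e-12). GPR183 (EBI2), which reads oxysterols, rose by 0.86 and CXCR4 by 0.53. ACKR3, a decoy receptor for CXCL12, had 1534, 1509 and 1502 counts in RelB-labelled against 260.2, 254 and 289.6 in control libraries (limma adjusted p = 9.22e-14). Its ligand CXCL12 was higher as well, at 779, 833 and 879.5 counts in RelB-labelled against 346, 345 and 332 in control libraries (log2 fold change 1.28). CCL20, the ligand of CCR6, rose by 1.80. Of 11 chemokines tested, 6 were called higher and 2 lower.

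Genes of cell division were lower throughout. All 39 tested replication genes and all 40 tested mitosis genes were called lower, with median log2 fold changes of -0.81 and -0.92. CDC6, which loads the replicative helicase, had 943, 919.8 and 888 counts in RelB-labelled against 2376, 2544 and 2626 in control libraries, a log2 fold change of -1.45 ± 0.060 (limma adjusted p = 1.88e-14). CDC45, a helicase cofactor, had 710.1, 696 and 729 counts in RelB-labelled against 1870.2, 1952 and 2143 in control libraries (log2 fold change -1.48). MCM10, a replication initiation factor, and RRM2, a ribonucleotide reductase subunit, fell, with log2 fold changes of -1.35 and -1.29. For mitosis, CCNB1, the cyclin that drives entry, had 1760, 1606 and 1620.3 counts in RelB-labelled against 4066, 4267 and 4580.5 in control libraries, a log2 fold change of -1.37 ± 0.067 (limma adjusted p = 1.69e-13). KIF11, the spindle kinesin Eg5, had 2124, 1923 and 1970.3 counts in RelB-labelled against 4849.8, 5046 and 4323 in control libraries (log2 fold change -1.24). AURKA, HMMR and TTK, a mitotic kinase, a spindle protein and a checkpoint kinase, fell, with log2 fold changes of -1.13, -1.30 and -1.29. None of these genes had overlapping groups. Depending on the alternative, the medians ran from -0.85 to -0.69 for replication and from -0.97 to -0.78 for mitosis.

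The windows of CDC6, KIF11 and HMMR are shown because they hold the letters that recur in windows of their lists. For replication genes these are E2F-type motifs (TTTGGCGC, TTTCCCGC, TTTCGCGC or TTTGCCGC on either strand), and for mitosis genes the CHR motif (TTTGAA on either strand), both in capitals. CDC6 is at chr17:40287629-40287928, plus strand, with its match starting at base 8 after the start. KIF11 is at chr10:92592880-92593179, plus strand, with its match starting 28 bases before the start. HMMR is at chr5:163460382-163460681, plus strand, with matches starting 28 and 22 bases before the start.
CDC6: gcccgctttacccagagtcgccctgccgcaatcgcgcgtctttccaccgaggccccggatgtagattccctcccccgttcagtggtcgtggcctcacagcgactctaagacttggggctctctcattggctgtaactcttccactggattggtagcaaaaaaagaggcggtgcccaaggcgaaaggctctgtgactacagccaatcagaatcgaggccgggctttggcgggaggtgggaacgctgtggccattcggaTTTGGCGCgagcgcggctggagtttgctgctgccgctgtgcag
KIF11: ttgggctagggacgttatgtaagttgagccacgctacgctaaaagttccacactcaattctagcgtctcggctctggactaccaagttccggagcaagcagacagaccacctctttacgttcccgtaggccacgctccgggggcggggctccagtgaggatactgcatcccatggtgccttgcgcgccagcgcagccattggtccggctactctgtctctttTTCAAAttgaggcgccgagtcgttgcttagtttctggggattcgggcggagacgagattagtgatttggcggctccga
HMMR: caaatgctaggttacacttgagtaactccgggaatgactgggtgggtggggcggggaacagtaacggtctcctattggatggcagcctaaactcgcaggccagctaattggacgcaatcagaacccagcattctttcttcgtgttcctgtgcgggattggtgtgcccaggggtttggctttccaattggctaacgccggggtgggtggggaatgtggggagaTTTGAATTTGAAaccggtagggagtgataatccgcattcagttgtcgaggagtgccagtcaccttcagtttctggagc
An E2F-type motif stood in 17 of 34 replication windows (50%), in 7.19% of windows of all genes called lower, and in 5.36% of all windows. The CHR motif stood in 23 of 34 mitosis windows (67.6%), in 11.5% of windows of all genes called lower, and in 9.95% of all windows. Among windows of genes at least 2-fold lower, the shares were 9.47% for the E2F-type motif and 23.4% for the CHR motif. These shares describe the lists and were not tested.

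**Figure D2:**
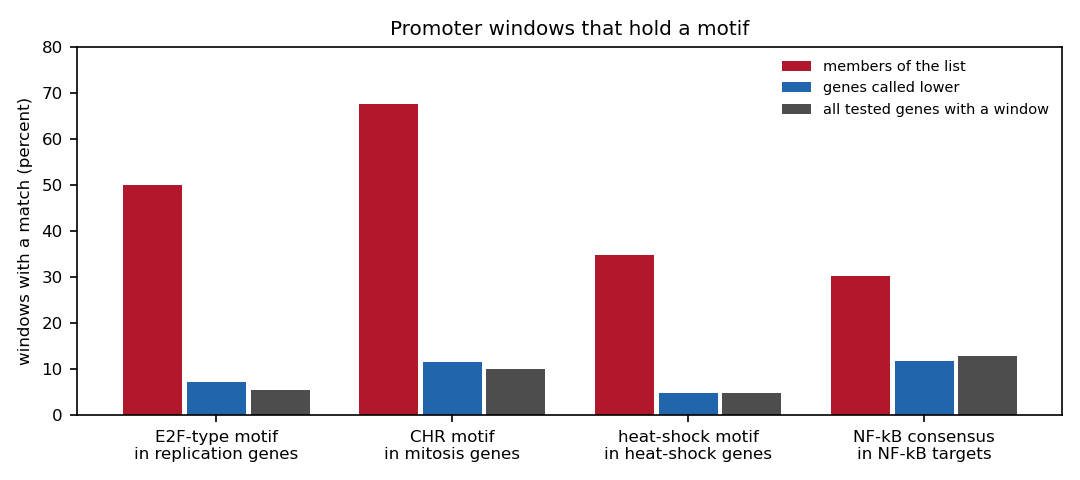
Percent of promoter windows that hold a motif, for the members of a list (red, left), for all genes called lower (blue) and for all tested genes with a window (grey, right). E2F-type motifs reached 50% of replication windows and the CHR motif 67.6% of mitosis windows, against 5.36% and 9.95% of all windows.

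Of 23 tested G1 cyclins, CDKs and their regulators, 6 were called higher and 12 lower. CDC25A, a phosphatase that activates CDK2, had 879, 809 and 747 counts in RelB-labelled against 2020.2, 2115 and 2050.1 in control libraries, a log2 fold change of -1.35 ± 0.071 (limma adjusted p = 5.83e-13). E2F2, an activator of S-phase genes, fell by 1.52, and the cyclins CCNE2 and CCNE1 had log2 fold changes of -1.13 and -0.83. CDKN1B, the CDK inhibitor p27, was higher, at 2422, 2458 and 2701 counts in RelB-labelled against 1548, 1394 and 1357 in control libraries (log2 fold change 0.82, limma adjusted p = 4.66e-09). Homologous-recombination genes, many of which peak in S phase, were called lower in 26 of 35 cases and higher in 4. EXO1 and BLM, a resection nuclease and a helicase, fell, with log2 fold changes of -1.36 and -1.23.

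Histone transcripts were also mostly lower. Of 32 tested histone genes, 23 were called lower, 16 of them at least 2-fold, and 1 was called higher. H2AFX, the histone phosphorylated at DNA breaks, had 1788, 1813 and 1658 counts in RelB-labelled against 6925, 7509 and 8661 in control libraries, a log2 fold change of -2.13 ± 0.093 (limma adjusted p = 3.33e-14). H2AFZ, the replacement histone H2A.Z, fell by 1.61. HIST1H1C, a linker histone, had 968, 1434 and 1589.7 counts in RelB-labelled against 6544, 6341 and 7608 in control libraries (log2 fold change -2.39 ± 0.14). The one that rose, named here after its value was seen, was H1F0, a linker histone of resting cells, with 35, 45.9 and 46.9 counts in RelB-labelled against 12.1, 6.9 and 14.9 in control libraries (log2 fold change 1.87, limma adjusted p = 2.21e-05). Libraries were poly(A)-selected, most replication-dependent histone mRNAs lack a poly(A) tail, and near-identical histone copies can share reads, so levels of HIST genes are uncertain.

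**Figure D3:**
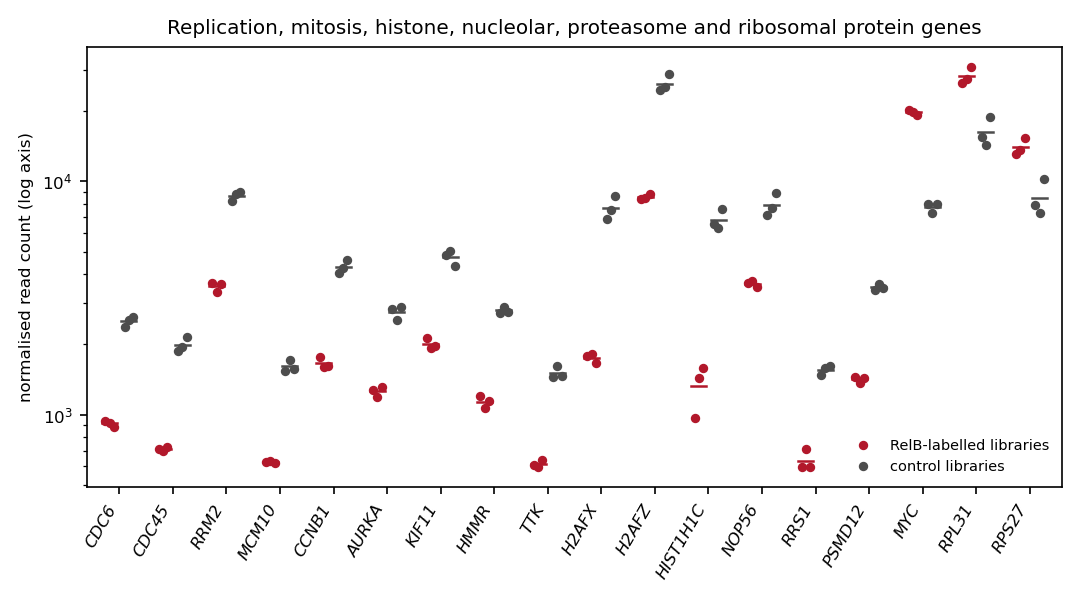
Normalised read counts on a log axis in the 3 RelB-labelled (red, left) and 3 control (grey, right) libraries, with the group mean as a line. Replication, mitosis, histone, nucleolar and proteasome genes are lower in the RelB-labelled libraries, and MYC (RelB-labelled 20173, 19874 and 19308, control 8017, 7339 and 7983) and the ribosomal protein genes are higher.

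MYC was higher while genes of ribosome assembly were lower. MYC, a transcription factor of growth, had 20173, 19874 and 19308 counts in RelB-labelled against 8017, 7339 and 7983 in control libraries, a log2 fold change of 1.35 ± 0.088 (limma adjusted p = 1.3e-11). MXD1 and MXI1, which compete with MYC for MAX, were higher too, by 1.23 and 1.79, and MAX was not called. Ribosome-biogenesis genes, which MYC is known to induce, were called lower in 36 of 40 cases and higher in 1, with a median of -0.60. NOP56, a core protein of box C/D snoRNPs, had 3657, 3751 and 3527 counts in RelB-labelled against 7176, 7697 and 8882 in control libraries (log2 fold change -1.11 ± 0.065). RRS1, GAR1 and MRTO4 fell, with log2 fold changes of -1.30, -1.16 and -1.15.

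Cytosolic ribosomal protein genes went the other way. Of 79 tested, 61 were called higher and 5 lower, with a median of 0.38 that stayed between 0.28 and 0.49 under every alternative. They took 9.03% ± 0.469 of reads in RelB-labelled and 6.60% ± 0.661 in control libraries (SD, n = 3 each). RPL31 had 26439, 27514 and 30898 counts in RelB-labelled against 15467, 14243 and 18953 in control libraries (log2 fold change 0.81 ± 0.10). RPS27 rose by 0.73 on the log2 scale. The members called lower included the minor paralogs RPL26L1 and RPL7L1, at -0.86 and -0.49. Processed pseudogenes resemble these genes closely, so reads may be shared.

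Several other lists of protein production and turnover were mostly lower, but not all. Translation factors had 14 of 43 called higher and 17 lower, with a median of -0.08. Autophagy genes had 14 of 23 called higher and 4 lower, with a median of 0.32. The proteasome had 29 of 30 tested subunits called lower and 0 higher, with a median of -0.61. PSMD12, a lid subunit, had 1451, 1373 and 1430.5 counts in RelB-labelled against 3432, 3616 and 3488 in control libraries, a log2 fold change of -1.31 ± 0.057 (limma adjusted p = 3.33e-14). PSMD1 and PSMD2, the scaffold subunits of the cap, fell, with log2 fold changes of -0.94 and -0.80. Of 76 mitochondrial ribosomal protein genes 64 were called lower and 0 higher, with a median of -0.44. The CCT chaperonin, which folds actin and tubulin, had 7 of 9 subunits called lower, and aminoacyl-tRNA synthetases 15 of 22. One-carbon and nucleotide synthesis genes were called lower in 21 of 27 cases. Medians for CCT and one-carbon genes were -0.61 and -0.37, against -0.58 and -0.38 in the p52 knockout over the same controls. Compared directly with the p52 knockout, 1 CCT gene was lower and 0 higher, and 13 one-carbon genes were lower and 3 higher.

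**Figure D4:**
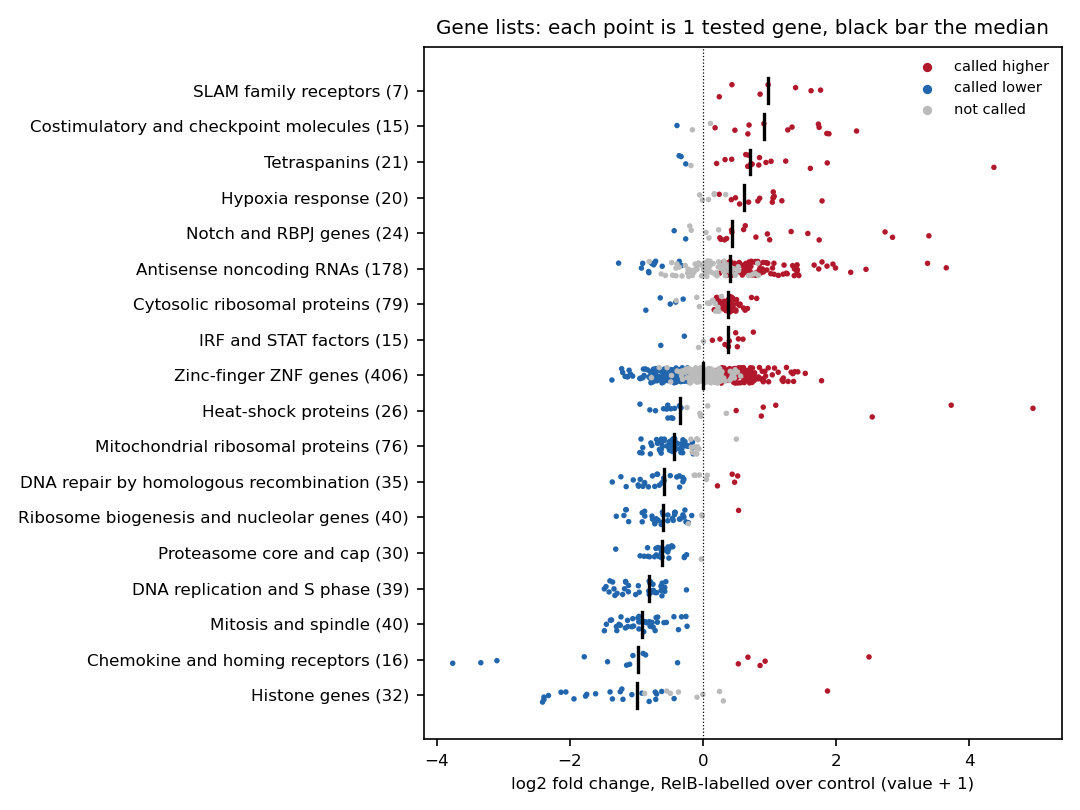
Log2 fold change of RelB-labelled over control for each tested gene of 18 lists (number tested in brackets), red where called higher, blue where called lower, grey where not called, with the list median as a black bar. The replication and mitosis lists lie wholly below 0, with medians of -0.81 and -0.92, and the SLAM family wholly above it, at 0.98.

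Heat-shock genes split, with the inducible HSP70 genes HSPA1B, HSPA1A and HSPA6 higher and other chaperone genes, such as HSPA8 and HSP90AA1, lower. HSPA1B, an inducible HSP70, had 2918, 1768 and 1441 counts in RelB-labelled against 142, 140 and 156 in control libraries, a log2 fold change of 3.73 ± 0.19 (limma adjusted p = 4.24e-13). HSPA1A, its near-identical neighbour, had 1089, 540.2 and 450 counts in RelB-labelled against 98.1, 115 and 115 in control libraries (log2 fold change 2.55 ± 0.23), and reads may be split between the pair. HSPA6, a strictly inducible HSP70, had 174, 93.7 and 106 counts in RelB-labelled against 2.21, 1.97 and 5.17 in control libraries (log2 fold change 4.96 ± 0.52). RelB-labelled library 1 was the highest for all 3, yet the other two also lay above every control. Without that library the log2 fold changes were 3.44, 2.16 and 4.70 for HSPA1B, HSPA1A and HSPA6. HSPA8 and HSP90AA1, which encode abundant chaperones, fell, with log2 fold changes of -0.80 and -0.94 (limma adjusted p = 5.86e-09 and 1.35e-08). Of 26 tested heat-shock genes, 7 were called higher and 14 lower. The ER chaperone HSPA5 (BiP) had 15300, 16275 and 15905 counts in RelB-labelled against 29882, 32908 and 31254 in control libraries (log2 fold change -0.99).

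The windows of the 3 induced HSP70 genes are shown with the paired heat-shock unit GAANNTTC, which reads alike on both strands, in capitals. HSPA6 is at chr1:161524290-161524589, plus strand, with matches starting 180 and 69 bases before the start. HSPA1A is at chr6:31815293-31815592, plus strand, with its match starting 106 bases before the start, and HSPA1B is at chr6:31827488-31827787, plus strand, with its match starting 105 bases before.
HSPA6: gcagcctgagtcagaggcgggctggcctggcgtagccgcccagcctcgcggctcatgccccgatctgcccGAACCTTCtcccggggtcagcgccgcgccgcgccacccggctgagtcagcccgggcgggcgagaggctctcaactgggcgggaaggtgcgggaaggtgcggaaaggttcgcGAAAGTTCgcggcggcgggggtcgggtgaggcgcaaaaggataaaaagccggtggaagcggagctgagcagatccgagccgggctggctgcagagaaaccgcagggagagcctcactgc
HSPA1A: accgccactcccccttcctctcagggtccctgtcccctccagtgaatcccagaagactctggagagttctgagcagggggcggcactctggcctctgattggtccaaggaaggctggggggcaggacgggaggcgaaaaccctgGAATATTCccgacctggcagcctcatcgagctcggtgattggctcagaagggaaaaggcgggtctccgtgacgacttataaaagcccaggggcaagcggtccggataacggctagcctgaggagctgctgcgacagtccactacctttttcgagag
HSPA1B: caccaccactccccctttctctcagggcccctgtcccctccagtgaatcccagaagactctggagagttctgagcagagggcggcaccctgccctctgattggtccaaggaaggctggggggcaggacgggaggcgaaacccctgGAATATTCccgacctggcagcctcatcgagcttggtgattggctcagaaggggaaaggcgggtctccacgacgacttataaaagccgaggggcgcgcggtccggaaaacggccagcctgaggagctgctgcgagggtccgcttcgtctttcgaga
The unit was present in 8 of 23 heat-shock windows (34.8%) and in 4.72% of all windows. It was in 4.82% of windows of genes called higher and 4.80% of those called lower. Among genes at least 2-fold higher and at least 2-fold lower the shares were 4.06% and 8.58%. These shares were not tested. Heat-shock genes with the unit included HSPA8, which fell, as well as HSPA6, HSPA1A and HSPA1B, which are 3 of the heat-shock genes called higher.

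Genes of the Notch pathway, whose nuclear factor RBPJ is also the DNA anchor of the viral protein EBNA2, were mostly higher. Of 24 tested genes 17 were called higher and 2 lower, with a median of 0.43. The median of the p52 knockout against the same controls was also 0.43. Compared directly, 8 genes were higher and 2 lower in RelB-labelled than in p52 knockout libraries. The ligand DLL1 had 109, 137 and 106 counts in RelB-labelled against 11, 9.86 and 9.69 in control libraries, a log2 fold change of 3.40 ± 0.27 (limma adjusted p = 4.08e-10). It was also higher in the p52 knockout, at 70.4, 67.0 and 69.1 counts, a log2 fold change over control of 2.64. DLL4 had 64.2, 85.1 and 81.6 counts in RelB-labelled against 11, 12.8 and 8.4 in control libraries (log2 fold change 2.74 ± 0.21), and JAG1 rose by 1.75. HES1, a repressor that Notch induces, had 99.2, 132 and 104 counts in RelB-labelled against 17.6, 9.86 and 17.5 in control libraries (log2 fold change 2.85 ± 0.36). All 4 were above every control in each RelB-labelled library, and DLL1, DLL4 and HES1 were low in controls.

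Hypoxia-response genes were called higher in 14 of 20 cases and lower in 0, with a median of 0.62. The median of the p52 knockout against the same controls was 0.43. Compared directly, 7 of these genes were higher and 4 lower in RelB-labelled than in p52 knockout libraries. VEGFA, an angiogenic growth factor, had 2400.1, 2795 and 2766 counts in RelB-labelled against 1196, 1121 and 1169 in control libraries, a log2 fold change of 1.19 ± 0.066 (limma adjusted p = 1.4e-12). EPAS1, the gene of HIF-2alpha, rose by 1.06, and HIF1A was not called (0.09). The glucose transporter SLC2A3 had 1852, 2257 and 2332 counts in RelB-labelled against 194, 214 and 226 in control libraries (log2 fold change 3.33 ± 0.13). The glycolysis list had 8 of 24 genes called higher and 7 lower, and LDHA, lactate dehydrogenase A, fell by 0.56.

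B-cell stage genes changed in both directions. BCL6, the master repressor of the germinal centre, had 40.8, 39.2 and 32.7 counts in RelB-labelled against 199.6, 276 and 235 in control libraries, a log2 fold change of -2.62 ± 0.15 (limma adjusted p = 1.58e-12). HHEX, a homeobox factor of memory B cells, had 67.1, 102 and 95.9 counts in RelB-labelled against 567, 557 and 512 in control libraries (log2 fold change -2.63 ± 0.11). PRDM1, the plasma-cell repressor Blimp-1, had 315, 284 and 314 counts in RelB-labelled against 830.4, 979 and 899.7 in control libraries (log2 fold change -1.56 ± 0.099). All 3 factors were lower in every RelB-labelled library, while SDC1, the plasma-cell surface protein CD138, rose by 1.34 and IRF4 was not called. EBF1, a B-lineage factor, had 2369.5, 2519 and 2377 counts in RelB-labelled against 1195, 1139.6 and 1080 in control libraries (log2 fold change 1.09). The inhibitors of E proteins ID2, ID3 and ID1 fell, with log2 fold changes of -1.33, -1.32 and -2.94. BCL2, the anti-apoptotic protein, had 7012, 7163 and 7133 counts in RelB-labelled against 2812, 2621 and 2122 in control libraries (log2 fold change 1.51 ± 0.089).

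Interferon-linked genes were higher on balance. IRF and STAT factors were called higher in 11 of 15 cases and lower in 2, and MHC class I presentation genes in 12 and 4 of 21. IRF7 had 1178, 1233 and 1287 counts in RelB-labelled against 688, 721 and 776 in control libraries (log2 fold change 0.76, limma adjusted p = 3.56e-07). HLA-F, a non-classical class I gene, rose by 1.24. GBP6, an interferon-inducible GTPase, had 140, 94.7 and 105 counts in RelB-labelled against 3.31, 6.9 and 4.52 in control libraries (log2 fold change 4.30 ± 0.37), and GBP2 rose by 2.07, while GBP1 was not called. Interferon-stimulated genes had 21 of 38 called higher and 8 lower.

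Among called genes with separate groups and a higher group mean of at least 100, the greatest rise was that of TBC1D30, a Rab GTPase-activating protein. It had 752, 705 and 748 counts in RelB-labelled against 18.7, 14.8 and 23.3 in control libraries, a log2 fold change of 5.23 ± 0.26 (limma adjusted p = 2.65e-13). CALD1, the actin-binding caldesmon, had 417, 389 and 413 counts in RelB-labelled against 25.4, 31.5 and 21.3 in control libraries (log2 fold change 3.93 ± 0.17). NRCAM, a neural adhesion molecule, had 1837, 1674 and 1655 counts in RelB-labelled against 147, 161 and 101 in control libraries (log2 fold change 3.68 ± 0.14). For all 3 the groups lay far apart. TSPAN11, GNAQ (a G-protein alpha subunit), A2M, C3 (complement component 3), ENTHD1 and SERPINB2 were also among the most raised, with log2 fold changes between 3.05 and 4.37. Immediate-early genes split as well: EGR1 rose by 1.96 and IER3 fell by 2.04. RGS1, a regulator of G-protein signalling, had 26439, 20568 and 23682 counts in RelB-labelled against 3369.9, 2694 and 3460.4 in control libraries (log2 fold change 2.89 ± 0.12). Also among the 15 lowest were BCAR3, GATA3, FAM135B, SORBS2 and TUBB2A, with log2 fold changes between -3.09 and -2.08.

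A stricter rule picked the genes called RelB-only. Such a gene was called against control, called in the same direction against each of the cRel, p50, p52 and RelA knockouts, and not called in any of those knockouts against control. It selected 618 higher genes (4.99% of those tested) and 626 lower genes (5.06%), of which 121 and 66 changed at least 2-fold. All of these comparisons share the control or the RelB-labelled libraries. A gene not called in another knockout was not shown to be unchanged there. As a description without a test, the 3 RelB-labelled libraries lay above all 15 others for 1961 genes (15.8%) and below all 15 others for 2027 genes (16.4%).

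The 12 RelB-only genes of greatest rise included the inducible HSP70 genes HSPA6, HSPA1B and HSPA1A and the Notch target HES1. HILPDA, a lipid-droplet protein, had 1537, 2099 and 2117 counts in RelB-labelled, 296, 432 and 449 in p52 knockout and 324, 289.8 and 339 in control libraries, a log2 fold change over control of 2.58 ± 0.16. Since the rule used these values, they are given without a test. ZFP36 (tristetraprolin), which promotes decay of mRNAs such as that of TNF, had 2480.3, 2351 and 2339 counts in RelB-labelled, 662, 657 and 608 in p52 knockout and 619.7, 628 and 784 in control libraries (log2 fold change over control 1.83 ± 0.11). IGFBP2, an IGF-binding protein, had 567, 442 and 467 counts in RelB-labelled, 79.9, 65.9 and 90 in p52 knockout and 65.1, 34.5 and 67.9 in control libraries (log2 fold change over control 3.17 ± 0.25). In each case the p52 knockout overlapped the controls and the RelB-labelled libraries lay above both. The rest were HOXB2, COLGALT2, SMARCA1, ZBED8 and ZFYVE9, with log2 fold changes over control between 1.77 and 2.77. SMARCA1 also had 41.4, 54.8 and 59.9 counts in RelA knockout against 32.0, 26.6 and 22.6 in control libraries, without a call (limma adjusted p = 0.0563).

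Among RelB-only genes that fell, ST8SIA1, the GD3 synthase of gangliosides, had 49.6, 48.8 and 40.8 counts in RelB-labelled, 167, 194 and 169.9 in p52 knockout and 153, 156 and 179 in control libraries (log2 fold change over control -1.79 ± 0.11). HEXIM1, an inhibitor of the elongation kinase P-TEFb, had 1130.1, 1208 and 1085 counts in RelB-labelled, 2847, 2839 and 2411 in p52 knockout and 3099.8, 2873 and 2697 in control libraries (log2 fold change over control -1.34 ± 0.086). The transcription factor RFX2, the zinc-finger gene ZNF180, the ligand EFNB1, the receptor inhibitor LRIG1, SERTAD1, the growth factor HBEGF, FDXACB1, ADM5, FJX1 and the RNA-binding protein MEX3B were lower too, with log2 fold changes between -1.62 and -1.17. Some were near a call in another knockout. In the p50 knockout HBEGF and FDXACB1 had log2 fold changes over control of -0.36 and -0.35 (limma adjusted p = 0.0627 and 0.0577). SERTAD1 went the other way in the p52 knockout, at 0.29 (limma adjusted p = 0.0597).

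The share of RelB-only genes varied among lists, which is given as a description. Of the 79 cytosolic ribosomal protein genes, 28 (35.4%) were RelB-only higher, including RPS27. Of the 406 tested ZNF zinc-finger genes, 59 (14.5%) were RelB-only lower and 14 (3.45%) higher, whereas against control 120 were called higher and 126 lower. Antisense RNAs were RelB-only higher in 22 of 178 cases (12.4%). In the division lists, 0 of 39 replication and 2 of 40 mitosis genes were RelB-only lower, against 5.06% of all tested genes. The median of the p52 knockout against the same controls was -0.61 for replication and -0.50 for mitosis.

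**Figure D5:**
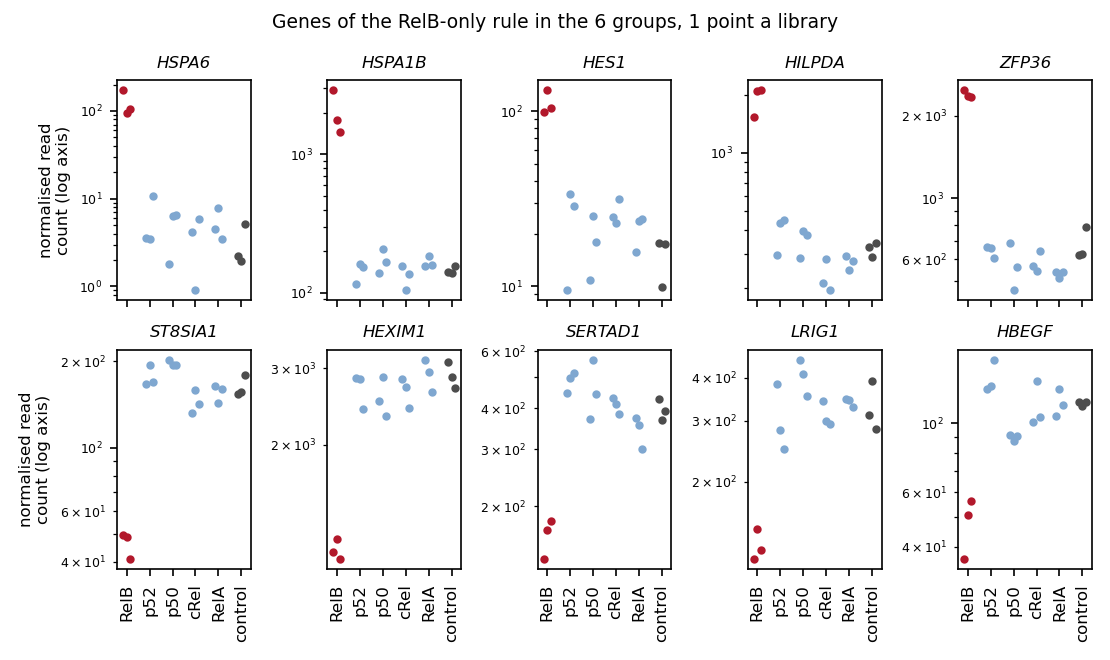
Normalised read counts on a log axis for 10 genes that met the RelB-only rule, 1 point a library, with RelB-labelled libraries in red at left, the p52, p50, cRel and RelA knockouts in blue and control libraries in grey at right. The RelB-labelled libraries lie above all others for the upper 5 genes, such as HILPDA at 1537, 2099 and 2117, and below all others for the lower 5, such as HEXIM1 at 1130.1, 1208 and 1085.

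p52 is the usual dimer partner of RelB, and its knockout was compared directly. That comparison called 2665 genes higher (21.5%) and 2957 lower (23.9%) in RelB-labelled than in p52 knockout libraries, 324 and 290 of them at least 2-fold. Without p52 library 3 it called 2545 higher and 2829 lower. Mitosis genes were lower than in the p52 knockout in 37 of 40 cases and replication genes in 24 of 39. Cytosolic ribosomal protein genes were higher in 35 of 79 cases and interferon-stimulated genes in 22 of 38. CCL22 had 7109.9, 7274 and 7379 counts in RelB-labelled and 2117, 2111 and 2134 in p52 knockout libraries, a log2 difference of 1.77 (limma adjusted p = 1.22e-13), and MYC had 20173, 19874 and 19308 and 6446, 5473 and 5563 in the same groups, a log2 difference of 1.77. PTGER4 had 39.4, 22 and 17.3 counts in RelB-labelled and 282, 239 and 172 in p52 knockout libraries (log2 difference -3.14, limma adjusted p = 1.57e-10). CD40 was not called in that comparison, at 3628, 3660.1 and 3855 counts in RelB-labelled and 3490.3, 3496 and 4002 in p52 knockout libraries (log2 difference 0.02, limma adjusted p = 0.817).

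At the extremes of that comparison, TBC1D30, CALD1, HSPA6, HSPA1B, GNAQ and GBP6 were the most raised in RelB-labelled over p52 knockout libraries, by between 3.14 and 4.74 on the log2 scale. L1CAM, a neural adhesion molecule, was the most lowered, with 16, 9.56 and 14.3 counts in RelB-labelled against 91.9, 139 and 158 in p52 knockout libraries (log2 difference -3.18, limma adjusted p = 1.7e-07). Its level in controls was 8.82, 5.91 and 7.11, so the p52 knockout was the group that stood apart. HIST1H1C had 968, 1434 and 1589.7 counts in RelB-labelled against 6823, 6421 and 7562 in p52 knockout libraries (log2 difference -2.41). SPTB, UBE2QL1 and GPC4 made up the rest, between -2.65 and -2.44. SPTB had means of 35.7 in RelB-labelled, 224 in p52 knockout and 53.6 in control libraries, and GPC4 20.2, 110 and 30.2. For SPTB and GPC4 the RelB-labelled and control libraries overlapped. The means of UBE2QL1 were 64.2, 368 and 180 in the same order.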

How the data were processed

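Poly(A)-selected, directional RNA-seq libraries of GM12878 cells were sequenced. STAR 2.5.2b, featureCounts 1.5.1, DESeq2 1.14.1 and the build GRCh37 are named in the submitters' processing notes, without roles; the annotation and strand setting are not stated there. The deposited values are a signal, read counts per gene that had been normalised by the authors, per the file name and values. Each library's values were whole multiples of 1 step, and of 308790 values 100% came out as whole reads within 0.0001 once it was removed. On these reads edgeR called 4267 genes higher and 4147 lower, and DESeq2 4146 and 4110. The 18 libraries held 15.2 to 37.5 M reads, which limits the precision of genes with few reads.

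The test was limma 3.58.1 in R 4.3.3 with an intensity trend, on log2(value + 1) of genes with a mean of at least 10, with 1 mean per group over 18 libraries. SDs are over 3 libraries. Alternatives were edgeR 4.0.16 and DESeq2 1.42.0 on the recovered reads, other pseudocounts, filters, scalings, a replicate block, and leaving out each RelB-labelled or control library, and, chosen after the data were seen, each p52 knockout library. The fits were tested on simulated data.

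Genes were named by a rule: the 5 subunit genes; the 15 highest and lowest called fold changes with separate groups and a group mean of at least 100; in each list up to 5 called members of smallest p, or any member of lists of up to 20; the 12 highest and lowest RelB-only genes; and the 6 highest and lowest against p52. Outside it, H1F0 and TNFRSF17 were chosen after their values were seen. Some genes the rule names are not reported here. The members and 88 lists were chosen with earlier results of these data known, so no set test was made. Promoters and starts come from RefSeq (GRCh38.p14), matched by Ensembl identifier or symbol.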

Additional observations from a re-analysis of the deposited data

How the results depend on the processing

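Counts of calls held under every alternative run, within 1.5 times of the main count. Leaving out 1 library gave 3826 to 4182 genes higher and 4027 to 4370 lower against control, 2275 to 2768 higher and 2591 to 3062 lower against the p52 knockout, and 1063 to 1480 RelB-only genes. The other alternatives gave 3071 to 4640 higher and 3975 to 4372 lower against control, 2163 to 2793 higher and 2621 to 3101 lower against the p52 knockout, and 1010 to 1397 RelB-only genes. Quantile normalization kept the fewest of the 8391 calls, 7187 in the same direction (85.7%), and no alternative called a gene in the opposite direction. Of 88 list medians, 68 kept their sign under all 19 alternatives, and the others had medians within 0.205 of 0. By a stricter measure, a shift beyond the SD of the list median over the RelB-labelled libraries, 75 of 88 lists moved under some alternative. That was 238 of 1672 values. Libraries of the same replicate number were not treated as pairs, since the deviations of same-numbered RelB-labelled and control libraries correlated at 0.0932, 0.0575 and 0.126, not all above 0.1. That 16 of 18 libraries correlated best with their own number is a hint of pairing from the data, not from the design. With the replicate block, 4185 genes were called higher and 4372 lower. The block ended or added no call among the genes given values in the text. Beside REL, RELA and NFKB1, calls against control lost under some alternative were those of GPC4 and SPTB. CD86, GBP1, HIF1A, MAP3K14 and MAX were called under quantile normalization, CD86 also without control library 3, and L1CAM without RelB-labelled library 2 or control library 1; the causes were not tested. Genes with few reads are the least precise.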

Other observations

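Families picked by their names after their values were seen, and so described without a test, moved together in several cases. Tubulin genes were called lower in 9 of 12 cases (median log2 fold change -1.24) and CENP centromere genes in 18 of 19 (-0.83). Condensin subunits, which compact chromosomes, were lower in 8 of 8. Splicing factors followed, with 19 of 22 hnRNP genes, 11 of 12 SNRP genes and 7 of 10 SRSF genes called lower. Nucleoporins were lower in 15 of 19 and 14-3-3 genes in 6 of 6. In the other direction, ZFYVE genes of endosomal proteins were higher in 8 of 8, WNT ligands in 5 of 6 and HERC genes in 5 of 6.

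Among further listed families, tetraspanins were called higher in 17 of 21 cases and lower in 3. TSPAN12 had 2372, 2209.6 and 2285 normalised counts in RelB-labelled against 696, 548 and 642 in control libraries (log2 fold change 1.87). Semaphorins and plexins were higher in 12 of 19 and potassium channels in 15 of 29. Lysosomal genes were higher in 17 of 34, and CTSB, the protease cathepsin B, had 1484, 1545 and 1645 counts in RelB-labelled against 618, 579.7 and 657 in control libraries (log2 fold change 1.33). Antisense RNAs were higher in 81 of 178 cases (45.5%) and lower in 13 (7.30%). These shares lay near those of all tested genes with a mean between 10 and 100, 41.0% higher and 13.1% lower. That class was set on means that include the RelB-labelled libraries. The part of low expression in the antisense counts was not tested. The antisense median moved from 0.12 to 0.46 over the alternatives. Whether reads were counted by strand is not stated in the labels or notes, so an antisense RNA and its partner may share reads.

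The B-cell markers were not of 1 direction, and MS4A1 was lower in every RelB-labelled library. CR2, the receptor through which EBV enters B cells, had 984, 820.4 and 859 counts in RelB-labelled against 484, 413 and 392 in control libraries (log2 fold change 1.05), and FCER2 (CD23) rose by 0.35. CSF1R, a marker of macrophages that B cells normally lack, had 729, 758 and 753 counts in RelB-labelled against 409, 376 and 383 in control libraries (log2 fold change 0.94). The part of other cell types in these values was not tested.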
